A study of Homo sapiens with 10 samples.

Results

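The genes described here are those of the cytosolic ribosome: the genes whose name in the deposited m6A peak lists has the standard form for a ribosomal protein of the large (RPL, RPLP) or small (RPS, RPSA) subunit. Names of pseudogenes, which end in P and a number, readthrough names that join a member to its neighbour, and the protein-coding copy RPL36AL fell outside this form. Of 5000 gene names in the 7 lists, 43 met this rule, 21 of the large subunit and 22 of the small. The rule looked at names only, so every member has a peak in at least 1 list, and a ribosomal protein gene with no peak is not among them. RPL7L1, a paralogue of RPL7, carries a name that meets the rule, although its product is not a common part of the mature ribosome.

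Each ribosome has a large subunit, which joins amino acids, and a small subunit, which reads the mRNA. Ribosomal protein mRNAs are short, abundant and stable. Most begin with a C followed by a run of pyrimidines, the terminal oligopyrimidine or TOP element, through which growth signals set their translation, and many host snoRNAs, the guides of rRNA modification, in their introns. N6-methyladenosine (m6A) is a methyl mark laid on mRNA adenosines, most often in long internal exons and around stop codons.

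The study used MeRIP-seq, in which an antibody against m6A pulls down RNA fragments that are then sequenced. The series gives the source of all samples as V16A, a prostate cancer cell line that it calls CRPC, castration-resistant. There were 5 pulled-down libraries, 2 from hypoxia, 2 from normoxia and 1 labelled EU 40min, and 5 inputs, which are not analysed here. The labels give no oxygen level or duration, no oxygen condition for the EU library, and no word on separate cultures. The labels do not spell out EU, and the series title names nascent RNA and genes of T cell activation as its subject. Each pulled-down library had a peak list, and each condition had 1 more list, whose making none of the sources describes. Where nothing names separate cultures, a p-value measures the spread between these samples alone.

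The replicate libraries differed in length: 2879 and 6621 peaks in hypoxia, 212 and 1563 in normoxia, and 5044 in the EU library. The condition lists had 7669 peaks for hypoxia and 2285 for normoxia. The lists carry positions and p values of peaks but no level of methylation or expression, and read depth is unknown. Of 12 prostate and epithelial markers, peaks were called in 1 and 3 under hypoxia, 0 and 4 under normoxia and 7 in the EU library, among them KLK2 and KLK3. The hypoxia condition list had peaks in 2 of these markers and the normoxia condition list in 4. FOLH1, KRT8, KRT18, CDH1 and STEAP1 had none in any list. Of 15 T and NK cell markers, which a prostate line should lack, peaks were called in 10 and 13 under hypoxia, 4 and 0 under normoxia and 11 with EU, and in 14 and 4 in the condition lists. Defining genes such as CD3D, CD3E and TRAC were among them. The hypoxia lists are also the longer ones, and the part of these markers in the results was not tested.

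The start sequences of the members are shown because the TOP element is the feature the family is best known for. RefSeq (GRCh38.p14) gave 45 start windows for 34 of the 43 members. Each window is read here from 5 bases before to 20 bases from the annotated start, on the transcript strand, 5′ to 3′. The pyrimidine runs searched were CTTTT along with CTCTT as well as CTTTC together with CCTTT, which can overlap one another, and they are in capitals. The 9 windows here are of genes with a peak in 2 or more of the 5 libraries. They lie, in order, at chr11:809962-809986 (+), chr9:124861938-124861962 (-), chr15:69452813-69452837 (+), chr1:23691801-23691825 (+, the second of 2 annotated starts), chr9:19380217-19380241 (-), chr11:119018324-119018348 (-), chr22:39319604-39319628 (-), chrX:72277229-72277253 (-) and chr6:42879611-42879635 (+).
RPLP2: gccttCCTTTTcctccctgtcgcca
RPL35: acttcCTCTTTCcctcggagcgggc
RPLP1: gagagccCCTTTCctcagctgccgc
RPL11: gCTTTCTCTTcctgctctccatcat
RPS6: tggccCTCTTTTccgtggcgcctcg
RPS25: gcttCCTTTTtgtccgacatcttga
RPL3: ccggcctctaccggcgggatttgat
RPS4X: gccccaatttctacgcgcaccggaa
RPL7L1: gcgccgtagctaggagcggacgcca

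A run was found in 29 of the 45 member windows (64.4%), against 9.72% of all 35116 RefSeq windows. By gene, 27 of the 34 members had a run in at least 1 window, 12 of the large and 15 of the small subunit. The reverse complement of these runs was in 1 member window (2.22%), against 7.19% of all windows. In the windows above, the first 6 genes show a run at or near the start, though the other annotated start of RPL11 has none, while RPL3, RPS4X and the paralogue RPL7L1 show none of these letters. A match is a description of these letters and no evidence of a working element.

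Peaks were called in 34 of the 43 members in at least 1 of the 5 libraries (79.1%), against 86.5% of all genes, and in the other 9 in a condition list alone. Hypoxia libraries had peaks in 10 and 21 member genes, and normoxia libraries in 2 and 1. Member peaks numbered 18 and 39 in hypoxia replicates 1 and 2, 4 and 2 in normoxia replicates 1 and 2, and 23, in 18 genes, in the EU library. Within hypoxia the longer list held more members, but within normoxia the shorter list did. As a share of all genes with a peak, members made up 0.795% (exact binomial 95% interval 0.382 to 1.46, counting error only) in hypoxia replicate 1 and 0.976% (0.605 to 1.49) in replicate 2. The shares were 1.44% (0.175 to 5.10) in normoxia replicate 1 and 0.111% (0.00282 to 0.620) in normoxia replicate 2. The EU library, at 0.753% (0.447 to 1.19), was close to the hypoxia libraries.

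The normoxia shares lay on either side of the hypoxia shares, so the groups overlapped. Under hypoxia the share of genes averaged 0.886% ± 0.128 (SD, n = 2), against 0.775% ± 0.939 (SD, n = 2) under normoxia, which differ by 0.110 percentage points (exact two-sided permutation test, p = 1). The share of peaks averaged 0.607% ± 0.0256 (SD, n = 2) under hypoxia, against 1.01% ± 1.24 (SD, n = 2) under normoxia, and differed by -0.400 (exact permutation p = 1). With 2 libraries against 2, this test cannot give a p below 0.333. The sign of these differences changed with 1 library: the gene share differed by 0.774 without normoxia replicate 1 and by -0.553 without normoxia replicate 2, and the peak share by 0.479 and -1.28.

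**Figure D1:**
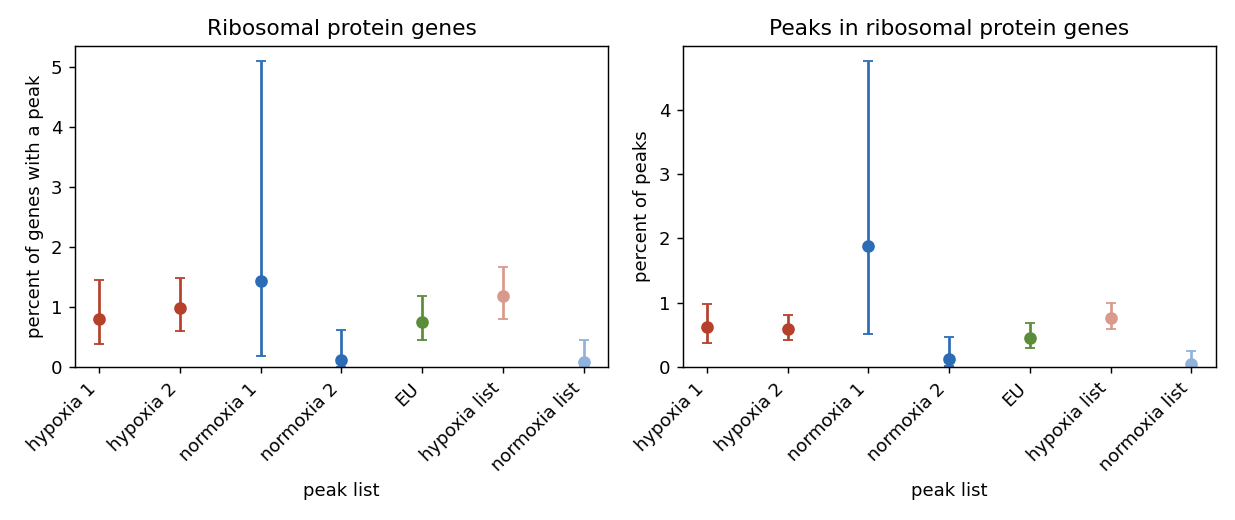
Ribosomal protein genes as a percent of genes with a peak (left) and their peaks as a percent of all peaks (right), one point per list with exact binomial 95% intervals. The 2 hypoxia libraries and the EU library lie between 0.753% and 0.976% of genes, normoxia replicate 1 at 1.44% with a wide interval and normoxia replicate 2 at 0.111%.

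The members with a peak under normoxia were few and differed between the replicates. RPS4X, the X-linked copy of a small subunit protein that has a Y-linked homologue, had 3 peaks in normoxia replicate 1. RPL22, whose product also binds a viral RNA, had 1 peak of 2 blocks there, with a deposited p of 5e-04, and a peak in no other list. RPL7L1 had 2 peaks in normoxia replicate 2, with deposited p of 2.4e-06 and 4.4e-06, and 2 in the EU library. No member had a peak in both normoxia libraries. RPL7L1 was the only member among the 897 genes with a peak in normoxia replicate 2, where RPL36AL and the readthrough name RPL36A-HNRNPH2, outside the rule, had 1 peak each.

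Hypoxia-only members, with a peak in both hypoxia and neither normoxia library, included RPLP2, RPL35 and RPS25. They make 4 of the 28 members with a peak in any of the 4 libraries (14.3%), against a background of 15.3% of all genes, so the share was close to the background. None was normoxia-only, where the background is 0.155%. Single genes were not tested, since presence in 2 libraries against 2 cannot pass a threshold. Without hypoxia replicate 1 the hypoxia-only count was 20 of 23 (87.0%, against 63.7% of all genes), and without hypoxia replicate 2 it was 9 of 12 (75.0%, against 49.5%).

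RPLP2 encodes an acidic protein of the ribosomal stalk, which recruits translation factors. It had 1 peak in each hypoxia library and 1 in the EU library, all near the transcript start and none under normoxia. In hypoxia replicate 1 the peak ran from 809989 to 810184 on chromosome 11 (hg38), with a deposited p of 5.1e-05, and that of the EU library at 809989 to 810087, with 3.8e-05. In hypoxia replicate 2 the peak lay at 810184 to 810469 in 2 blocks, with a deposited p of 1.9e-06. These hypoxia peaks met at 1 base, and the hypoxia condition list had a peak over the whole of 809989 to 810469. The first bases of that peak lie just past the end of the start window shown above.

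RPL35, which sits near the exit of the peptide tunnel, had 2 peaks per hypoxia library and none in either normoxia library or with EU. The downstream peak lay at chromosome 9, 124858286 to 124858385, in replicate 1 and at 124857979 to 124858385 in 2 blocks in replicate 2, with the same upstream end. The upstream peaks of 3 and 2 blocks overlapped between 124860228 and 124861041. All 4 peaks had deposited p of 4.4e-07 in replicate 1 or 1.2e-06 in replicate 2.

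RPS25, a protein of the small subunit head known for its part in translation from viral internal entry sites, had 1 peak at the same place in 3 libraries. It lay at chromosome 11, 119017412 to 119017559, in hypoxia replicate 1, at 119017363 to 119017559 in hypoxia replicate 2 and at 119017412 to 119017510 in the EU library. The deposited p values were 4.6e-05, 0.0058 and 0.0076. RPS25 had no peak in the hypoxia condition list, although both hypoxia replicates had one.

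RPS4X was the member found in most libraries, with 2 peaks per hypoxia library, 3 in normoxia replicate 1, 1 with EU and 0 in normoxia replicate 2. One stretch, chromosome X, 72272610 to 72274076, held peaks of 4 libraries. In normoxia replicate 1 the stretch was called as 3 separate peaks of 1 or 2 blocks, all with a deposited p of 3.2e-07. In the EU library it was called as 1 peak of 3 blocks covering 498 bases, with a p of 4.9e-05, and in hypoxia replicate 2 as 1 peak of 3 blocks covering 399 bases, with a p of 3.2e-07. Hypoxia replicate 1 had a peak of 2 blocks at 72273317 to 72273927. A second stretch, 72275562 to 72277201, nearer the start of the gene, had a peak in both hypoxia libraries and in neither normoxia library nor the EU library.

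**Figure D2:**
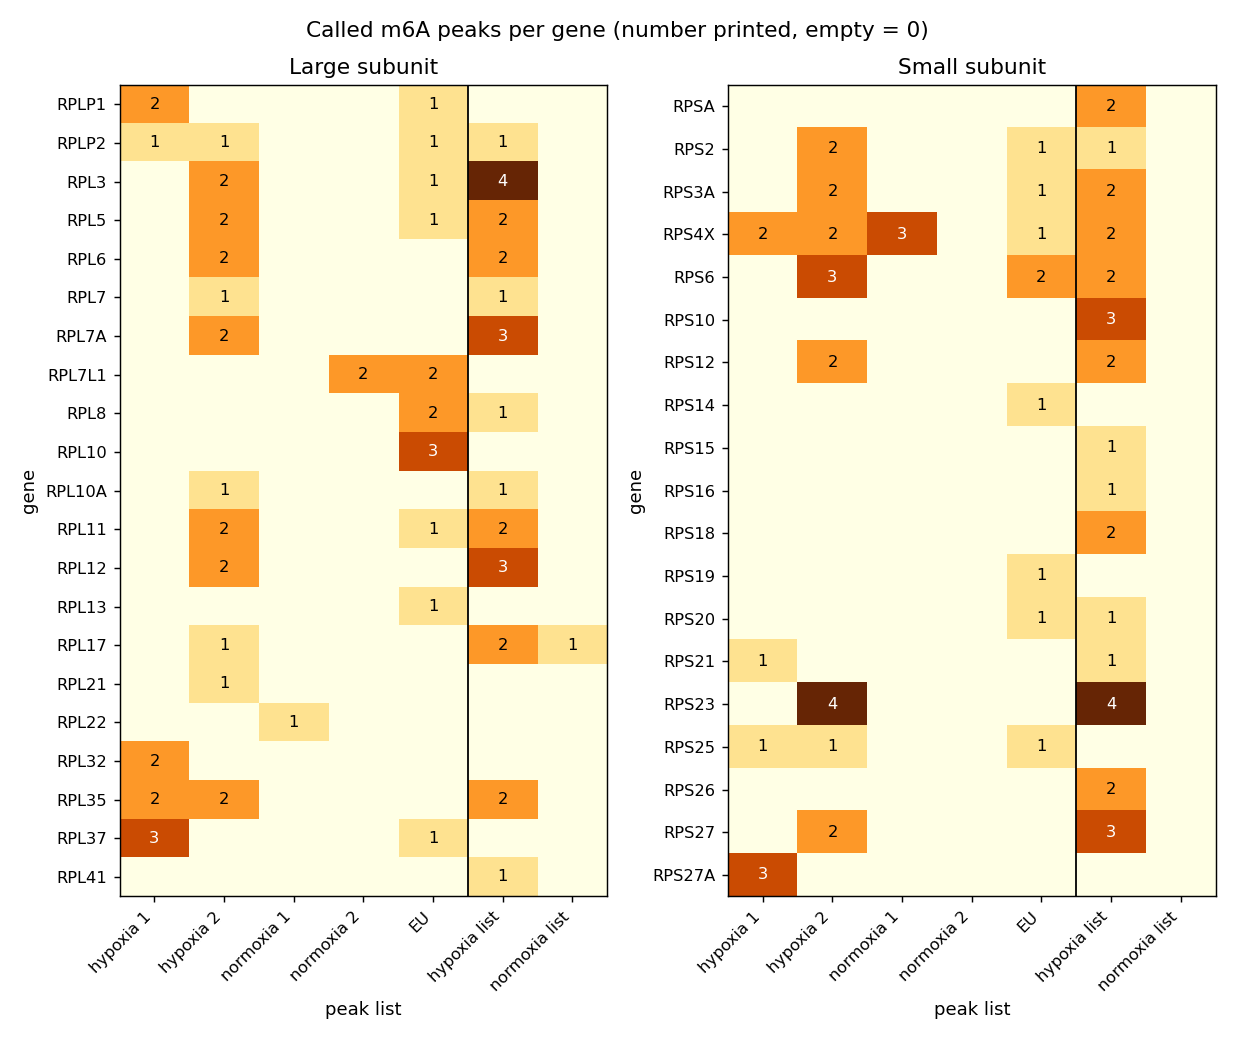
Number of called m6A peaks of the ribosomal protein genes reported singly (rows, large subunit left, small subunit right) in each of the 7 lists (columns, the 5 libraries left of the line). RPS4X is filled in 4 libraries, the normoxia columns hold RPS4X, RPL22, RPL7L1 and RPL17 alone, and the hypoxia condition list fills most small subunit rows.

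Most members of the hypoxia libraries were called in 1 of them, as were most genes. Of 26 members with a peak in either, 5 were in both (19.2%), among them RPLP2, RPL35, RPS4X and RPS25, against 25.0% of all genes. In replicate 1 alone were RPLP1, the partner of RPLP2 in the stalk, RPL32, RPL37, RPS21 and RPS27A, whose product is made as a fusion with ubiquitin. These are 19.2% of the 26, against 21.1% of all genes. In replicate 2 alone were 16 members (61.5%, against 53.9%), 10 of the large and 6 of the small subunit. Among them were RPL3, a protein close to the peptidyl transferase centre, RPL5 and RPL11, which with 5S rRNA bind the p53 regulator MDM2, RPL12, a protein of the stalk base, RPS6, the substrate of S6 kinases, and RPS23, a protein of the decoding centre.

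Of the 18 member peaks of hypoxia replicate 1, 7 were overlapped by at least 1 base by a peak of hypoxia replicate 2 (38.9%, exact 95% interval 17.3 to 64.3). The share over all genes was 47.4%. In reverse it was 7 of 39 (17.9%, 7.54 to 33.5), against 19.2% of all peaks. No member peak had the same ends in both hypoxia libraries. Merged over the 5 libraries, member peaks made 66 sites, of which 52 had a peak in 1 library, 11 in 2, 2 in 3 and 1 in 4. The sites of 3 libraries were those of RPLP2 and RPS25, and the site of 4 was that of RPS4X.

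Of the 11 sites of 2 libraries, 6 were called in the EU library and hypoxia replicate 2, 4 in both hypoxia libraries and 1 in the EU library and normoxia replicate 2. RPS6 had 2 of them. Its peaks at chromosome 9, 19378483 to 19379021 and 19376511 to 19376757 in hypoxia replicate 2, with deposited p of 0.00035 and 0.00054, were met in the EU library by shorter peaks with p of 0.00041 and 0.00051. RPL11 had peaks at chromosome 1, 23692674 to 23693821 and 23694666 to 23694815 in hypoxia replicate 2, both with a p of 6.9e-07, and the second was met by an EU peak with a p of 0.011. RPL3 had a peak of 2 blocks at chromosome 22, 39314804 to 39315400 in hypoxia replicate 2, with a p of 4.6e-07, and an EU peak with a p of 0.0021 at 39314804 to 39314954. RPS3A and RPL5 had such a site each.

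Other members had their EU and hypoxia peaks at different places. RPLP1 had 2 peaks in hypoxia replicate 1, at chromosome 15, 69452883 to 69453081 and 69455451 to 69455550, and its EU peak lay between them at 69453676 to 69453775. RPL37 had 3 peaks in hypoxia replicate 1, with deposited p of 9.5e-06 to 9.8e-06, and an EU peak at chromosome 5, 40826952 to 40827051, downstream of all 3. RPS2, a protein near the mRNA entry channel, had its EU peak at chromosome 16, 1962150 to 1962298, and its hypoxia replicate 2 peaks at 1962593 to 1962692 and 1962790 to 1962938. The RPS2 peak had a deposited p of 1.1e-07, the smallest of any member peak in the EU library. RPL7L1 alone shared a site between the EU library and normoxia replicate 2, at chromosome 6, 42886891 to 42887289 in the EU library and 42886991 to 42887190 in normoxia.

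Of the 28 members with a peak in the hypoxia or normoxia libraries, 12 also had one in the EU library (42.9%), against 39.9% of all genes. A further 6 of the 18 EU members (33.3%) had a peak in none of the 4, against 46.1% of all EU genes: RPL8, RPL10, RPL13, RPS14, RPS19 and RPS20. RPL10, which joins the large subunit late in its assembly, had 3 peaks in the EU library, the most of any member there, and no peak in any other list; 1 of them lay upstream of its RefSeq span. RPS19 and RPS14, whose loss is known from inherited and acquired anaemias, had 1 EU peak each. With 1 EU library these shares have no replicate check. The share of 42.9% was near the background, and that of 33.3%, over 18 members, was below it. Neither was tested.

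By the condition lists, the members were almost all on the hypoxia side. The hypoxia condition list had 59 peaks in 31 members, and the normoxia condition list had 1 peak in 1 member, RPL17, which was also in the hypoxia list. So 30 of 31 members were in the hypoxia list only (96.8%), against a background of 62.8% of all genes in either list. None was in the normoxia list only, against 20.3%, and 1 was in both (3.23%), against 16.9%. Members were 1.18% of the genes of the hypoxia list (0.800 to 1.66) and 0.0812% of those of the normoxia list (0.00206 to 0.452). There is 1 list a condition, so this contrast has no replicate check and was not tested. When the hypoxia list was cut to as many peaks as the normoxia list had, 13 of 14 members were in the hypoxia list only (92.9%, against 36.3% of all genes). The other, RPL17, was in the normoxia list only (7.14%, against 57.1%).

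The RPL17 peak of the normoxia list, given here after its values were seen, lay at chromosome 18, 49492417 to 49492523, across the annotated start of the gene, in 2 blocks, with a deposited p of 0.00013. The RPL17 peaks of the hypoxia list lay further downstream. A peak of the hypoxia list under the readthrough name RPL17-C18orf32 overlapped the normoxia peak.

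The hypoxia condition list and the replicates did not hold the same members. Of the 31 members of that list, 11 had no peak in either hypoxia library (35.5%), against 26.5% of all its genes. Among these were RPL8 and RPL41, the smallest ribosomal protein, of the large subunit and RPSA, RPS10, RPS15, RPS16, RPS18, RPS20 and RPS26 of the small. RPS10 had 3 peaks there, with a best deposited p of 1.7e-06. Of the 3, 2 were overlapped by peaks named for the readthrough RPS10-NUDT3, 1 in each hypoxia library. At those 2 places a hypoxia library had a peak under the other name, although RPS10 is counted among the 11. RPS26 had 2, with 3.9e-07 and 2.3e-05. In reverse, 6 of the 26 members of the hypoxia libraries were not in the condition list (23.1%), against 28.9% of all genes: RPLP1, RPL21, RPL32, RPL37, RPS25 and RPS27A. Of the 39 member peaks of hypoxia replicate 2, 26 had the same blocks in the condition list (66.7%, against 41.5% of all peaks), and of the 18 of replicate 1, 2 did (11.1%, against 13.5%).

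The subunit counts differed in direction between these lists. In hypoxia replicate 2, 12 of 21 large subunit members had a peak (57.1%) and 9 of 22 small subunit members (40.9%). In the hypoxia condition list the counts were 13 of 21 (61.9%) and 18 of 22 (81.8%). Of the 11 members of the condition list that neither replicate had, 9 were of the small subunit. Hypoxia replicate 1 had 5 members of each subunit, and the EU library 10 large and 8 small. Over the 4 replicate libraries the share of large minus small subunit members averaged 5.57 percentage points, from 0.216 to 16.2; it was 2.02 without hypoxia replicate 2 and 1.24 with each library shortened to 212 peaks. The denominators are members with a peak in at least 1 list. Of the 9 members in a condition list alone, 8 were of the small subunit, which lowers the small subunit share in every library. Among the 34 members with a peak in the 5 libraries, hypoxia replicate 2 had 12 of 20 large and 9 of 14 small. The small subunit share is then the higher, so the differences in share depend on the denominators. Genes are not replicates, and no test was run.

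Peaks in ribosomal protein genes lay nearer the 5′ end of the gene than peaks of all genes in the hypoxia and EU libraries. Position was measured as the percent of the RefSeq gene span, introns included, from the 5′ end to the middle base of the peak's blocks. The median was 35.4% in hypoxia replicate 1 (18 peaks) and 46.0% in hypoxia replicate 2 (39 peaks), against 71.6% and 73.9% for all genes. In the EU library it was 57.5% over 22 peaks, against 79.3%. In normoxia replicate 1 the 4 member peaks had a median of 63.8%, against 59.9%, and in normoxia replicate 2 the 2 peaks of RPL7L1 had 70.3%, against 76.5%.

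Of member peaks in the hypoxia libraries, 11 of 18 (61.1%) and 21 of 39 (53.8%) had a position below 50%, against 32.5% and 31.6% of all peaks. Peaks at the start of the gene in hypoxia replicate 1 included those of RPL37 at 1.86%, RPLP2 at 4.13% and RPLP1 at 4.84%. Peaks close to the 3′ end in hypoxia replicate 2 included that of RPL35 at 90.1%. In RPS23 all 4 peaks of hypoxia replicate 2 lay between 5.94% and 41.3%, each with a deposited p of 0.00087, and the hypoxia condition list had the same 4 with a p of 5.5e-06.

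Gene length moved with position. Member spans ran from 1335 to 14576 bases with a median of 4225, whereas the genes of hypoxia replicate 2 had a median span of 23317. Among other genes no longer than 14576 bases, a comparison added after seeing the data, the median position was 58.6% and 61.5% in the hypoxia libraries and 64.9% in the EU library. The member medians were below these too. This set an upper limit on length but did not match it. Members had median spans of 3669.5 and 4075 bases in the hypoxia libraries and 5132 in the EU library. In normoxia replicates 1 and 2 the member spans were longer, with medians of 9891.5 and 10285 bases. The median spans of the other genes in this comparison were not computed. The part of introns in these positions was not tested, since exon annotation was not used here. Over the 4 replicate libraries the member median averaged 40.7% ± 7.50 (SD, n = 2) under hypoxia, against 67.0% ± 4.58 (SD, n = 2) under normoxia. These differed by -26.3 points (exact permutation p = 0.333, as low as this test can go). Position was planned as a description, without a test. The normoxia values rest on 4 and 2 peaks, in mostly other and longer member genes than those of the hypoxia libraries. The part of gene make-up and length in this difference was not tested.

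**Figure D3:**
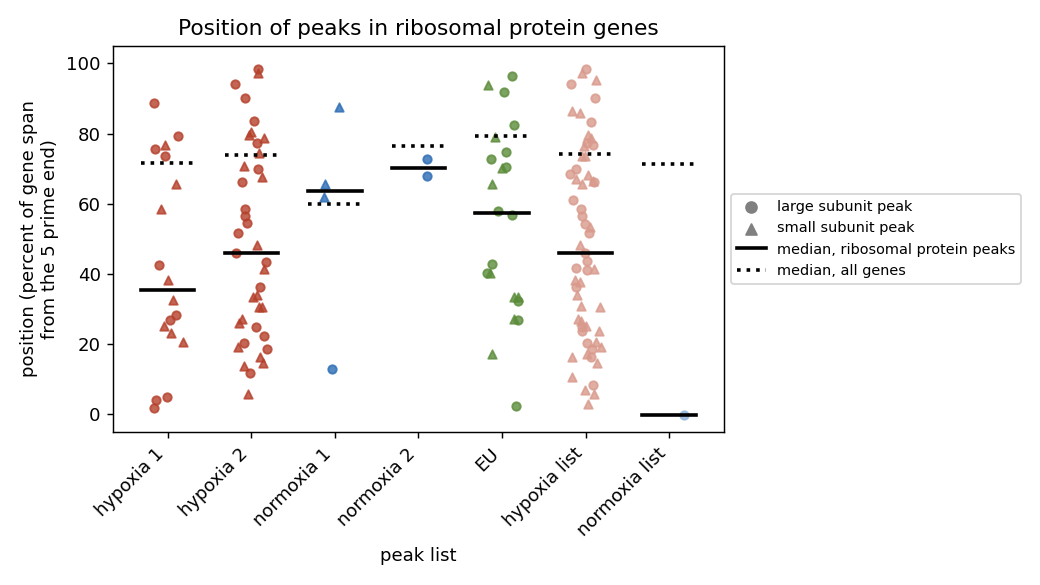
Position of each ribosomal protein gene peak along its gene in percent of the gene span from the 5′ end, by list, with the member median (solid) and the median of all genes (dotted). In hypoxia replicates 1 and 2 the member medians are 35.4% and 46.0% and the medians of all genes 71.6% and 73.9%.

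Many member peaks ran over several exon blocks. In hypoxia replicates 1 and 2, 9 of 18 (50%, exact 95% interval 26.0 to 74.0) and 18 of 39 (46.2%, 30.1 to 62.8) had 2 or more blocks, against 35.9% and 36.7% of all peaks. In the EU library it was 6 of 23 (26.1%, 10.2 to 48.4), against 19.8%. Under normoxia it was 2 of 4 and 0 of 2. These 3 intervals held the value of all genes. The most blocks in 1 member peak were those of RPL7, a large subunit protein, with 4 blocks in hypoxia replicate 2 and again in the hypoxia condition list. Covered length was 150 bases at the median in both hypoxia libraries, as for all genes (150 and 151), and 101 bases in the EU library, where the median of all genes was 199.

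**Figure D4:**
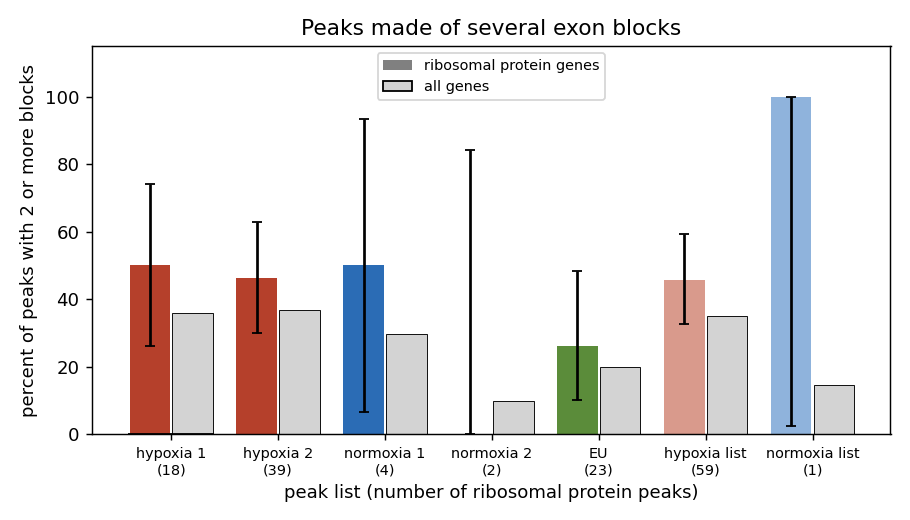
Percent of peaks with 2 or more exon blocks in ribosomal protein genes (coloured, with exact binomial 95% intervals) and in all genes (grey) in each list, with the number of ribosomal protein peaks below each pair. Members are at 50% and 46.2% in the hypoxia libraries and 26.1% in the EU library, with intervals that include the grey bars at 35.9%, 36.7% and 19.8%.

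Member peaks were fewer per gene than the mean over all genes in the longer lists. Member genes were also shorter, with a median span of 4075 bases in hypoxia replicate 2, against 23317 for all its genes. Peaks per gene were not compared at like length. They averaged 1.80 and 1.86 per member gene in the hypoxia libraries, against 2.29 and 3.08 over all genes, and 1.28 in the EU library, against 2.11. RPS23 had the most in any library, with 4 in hypoxia replicate 2. By deposited p, 12 of 18 member peaks of hypoxia replicate 1 were at or below the median of that list (66.7%), but 15 of 39 in hypoxia replicate 2 (38.5%) and 6 of 23 in the EU library (26.1%). The best member peak was that of RPL35 in hypoxia replicate 1 and that of RPS4X in hypoxia replicate 2, where 112 and 300 peaks of other genes had a smaller p.

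SnoRNAs lay within the span of 18 of the 43 members, 11 of the large and 7 of the small subunit, 36 snoRNAs in all. In the 5 libraries a block covered part of a snoRNA in 1 member peak, that of RPL7A over SNORD24 in hypoxia replicate 2 (2.56% of the member peaks there, against 0.136% of all peaks), and a gap between blocks held a snoRNA in 4. These were RPL37 with SNORD72 in hypoxia replicate 1, and RPL3 with SNORD83A, RPS12 with SNORD100 and RPL5 with SNORA66 in hypoxia replicate 2. Those gaps make 5.56% and 7.69% of member peaks in these libraries, against 0.208% and 0.257% of all peaks. These member shares rest on 1 and 3 peaks. Hosts of snoRNAs were 41.9% of the members, but the share of hosts among all genes was not counted. Peaks of other host genes were not compared, so the difference cannot be read as particular to the members. The condition list for hypoxia had 3 such blocks, in RPL7A, RPL3 (SNORD139) and RPSA (SNORA62), or 5.08%, against 0.183% of all its peaks.

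Related gene lists were read in the same way. Of 20 other mRNAs known for a TOP start, 14 had a peak: 7 and 10 under hypoxia, 1 and 1 under normoxia and 7 with EU. Hypoxia-only among them were EEF1A1 and EEF1D, subunits of elongation factor 1, PABPC1, the cytoplasmic poly(A)-binding protein, and TPT1, which is 4 of 13 (30.8%, against the background of 15.3%). In the condition lists 8 of their 9 genes were in the hypoxia list only, against 62.8% of all genes. Of 32 ribosome biogenesis genes, 20 had a peak, and NCL, NOLC1, NOP14 and UBTF were hypoxia-only (4 of 13, or 30.8%, against 15.3%). Their condition lists gave 9 of 13 in hypoxia only and 3 in normoxia only, near the shares of all genes (62.8% and 20.3%).

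Mitochondrial ribosomal protein genes were spread more evenly over the conditions than the cytosolic members. Of 28 with a peak in any list, peaks were called in 9 and 8 under hypoxia, 1 and 6 under normoxia and 11 with EU. MRPS6 was the 1 hypoxia-only gene of 18 (5.56%, against 15.3% of all genes). In the condition lists 10 of 19 were in the hypoxia list only, 7 in the normoxia list only and 2 in both. The shares of all genes were 62.8%, 20.3% and 16.9%. Against the mitochondrial counts, the cytosolic members had 30, 0 and 1 of 31. This difference was not tested.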

How the data were processed

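Peak lists of 5 pulled-down libraries and 2 condition lists were used. Per the submitters' processing notes reads were aligned with STAR to hg38. Neither the caller nor its settings, nor how inputs entered, is stated in those notes or labels. All lists are BED files of 12 columns without a header. The p-value of each peak, as deposited by the authors, was read from column 5, which has no name in the files and was taken for a p-value from its values (0 to 0.013, sorted).

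Members were found by name in column 4. Starts were moved to count from 1. Gene spans, snoRNAs and start windows came from RefSeq (GRCh38.p14). A gene span was found for 92.0% to 96.0% of each list's peaks. Overlap needed the same strand and 1 shared base in blocks. Shares have exact binomial intervals. Differences over libraries used exact permutation tests. Python 3.11.15, numpy 2.4.6, scipy 1.17.1 and pandas 2.3.3 were used, and functions were tested on simulated data.

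The rule names all 14 members with a peak in 2 or more of the 5 libraries, with coordinates for the first 12 by number of libraries and then deposited p, besides members of the condition lists; some members enter the counts but are not reported here singly. The members and lists were chosen with earlier results of these data known. Ribosomal protein genes have many near-identical processed pseudogenes, and reads may have been split among copies; peaks under the names RPL13AP5, RPL13P12, RPL4P4, RPLP0P6, RPS9P1, RPL36AL and under readthrough names were left out by the rule. Alternatives were a stricter p, wider peaks, shortened lists, no paralogue, a larger minimum overlap, each replicate left out and a replicate block.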

Additional observations from a re-analysis of the deposited data

How the results depend on the processing

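Of 63 alternatives over 9 results, 50 kept direction or size, 9 moved and 4 reversed. Kept meant the same sign for the differences in share, and a size near the main one for the rest. This criterion was loose. With narrow peaks dropped, 21 members in the hypoxia list only, beside 30, were kept. A subunit difference of 1.24 points with shortened libraries, beside 5.57, was kept too. The 50 include the replicate block and crossed pairs, which equal the main differences by construction. The difference in the share of genes (0.110) ran from -0.553 to 0.774 without 1 replicate and was -0.326 with each library shortened to 212 peaks. The difference in the share of peaks (-0.400) ran from -1.28 to 0.479 without 1 replicate and was 0.0204 when narrow peaks, below the median width, were dropped. Hypoxia-only members, 4, were 1 when only the 50% of peaks with the smallest p in a list were kept and 0 with shortened libraries, and 4 to 20 without 1 replicate. Normoxia-only members, 0, were 0 to 1 without 1 replicate, where only 1 normoxia library had to be met. Members in the hypoxia condition list only, 30, were 19 with the smallest p and 13 with that list shortened, where 1 member was in the normoxia list only. Among these alternatives, counts over all genes were made only for that shortened condition list and without 1 hypoxia replicate. In the others, a loss of members cannot be told from a loss of all genes. Fewer peaks in a hypoxia list can only lower the hypoxia-only counts, and fewer in a normoxia list can only raise them. The reverse holds for the normoxia-only counts. Settings that cut both kinds of list fix no direction, and the cause of these moves was not tested. With the replicate block the differences stayed at 0.110 and -0.400 by construction, with a paired exact p of 1 for both (the smallest 2 pairs allow is 0.5). The replicates' differences correlated at -0.105 over 3226 genes. Crossed pairs, chosen after seeing the data, also gave 0 calls. That was fixed in advance, since 2 pairs cannot give a p below 0.5, so it is no check of the pairing. Read depth is unknown, and normoxia values rest on 4 and 2 member peaks.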

Other observations

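Peaks under ribosomal protein names that the rule left out were few. RPL36AL, a retrotransposed copy of RPL36A that makes a protein, had 1 peak in hypoxia replicates 1 and 2, normoxia replicate 2, the EU library and both condition lists, which is a wider spread over lists than any of the 43 members had. The readthrough name RPL36A-HNRNPH2 had 1 peak in hypoxia replicate 2, normoxia replicate 2, the EU library and the normoxia condition list. RPL13AP5, a pseudogene of RPL13A, had 1 and 2 peaks in the hypoxia libraries and 1 in the hypoxia condition list, while RPL13A itself had a peak in none of the 7 lists. RPS9P1 had 2 peaks in the EU library and RPS9 none in any list.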
